A study of Mus musculus with 5 samples.

Results

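The collagen genes were taken as every row of the count tables whose symbol is Col, a number, a and a number. The rule found 44 of 24970 genes. They were compared between the urothelium of 2 wild-type mice (WT 1 and WT 2) and 3 Nicastrin knockout mice (KO 1 to KO 3), all aged 10 weeks, with 1 RNA sequencing library per mouse. The wild types are labelled as strain C57Bl/6. The knockouts are labelled Krt5CreERT2;Ncstnflox/flox, which means floxed alleles of Ncstn and an inducible Cre recombinase under the promoter of Krt5, a keratin gene of basal epithelial cells. No strain is named for the knockouts, and the induction of Cre was not given in the sources used here. Genotype, strain background and induction therefore cannot be told apart. The protocol dissected the urothelium off the muscularis propria, so connective tissue and vessels under the epithelium can remain in the sample. Nothing says that litters or dissection days were balanced.

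Collagens are the main structural proteins of connective tissue and basement membranes. Each chain carries stretches in which glycine recurs as 1 residue in 3, and chains wind together into a helix. Fibrillar collagens form the banded fibrils of the stroma and FACIT collagens (fibril-associated collagens with interrupted helices) sit on their surface. Network collagens form sheets such as the basement membrane, and type VI collagen forms beaded microfibrils. Transmembrane collagens span the plasma membrane of the cell that makes them. In the bladder, fibroblasts of the lamina propria are the main source of fibrillar collagen, whereas epithelial cells, endothelial cells and fibroblasts all add to the basement membrane. Ncstn encodes a subunit of gamma-secretase, a protease complex that cuts Notch receptors inside the membrane and so frees their signalling domain. The question here is how collagen expression differs in the dissected urothelium when this subunit is targeted in Krt5-expressing cells.

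The glycine repeat that defines the family can be read in the genes themselves, and 1 coding exon of 54 bases is shown for 6 members on which the results turn. Exons come from GENCODE vM21 on GRCm38 and are written 5′ to 3′ on the coding strand. Capitals mark each in-frame codon that starts with GG, which are the glycine codons.
Col1a1, chr11:94939904-94939957, strand +: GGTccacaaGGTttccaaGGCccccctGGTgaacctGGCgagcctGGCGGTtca
Col1a2, chr6:4515481-4515534, strand +: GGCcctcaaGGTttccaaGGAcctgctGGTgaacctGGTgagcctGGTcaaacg
Col3a1, chr1:45325360-45325413, strand +: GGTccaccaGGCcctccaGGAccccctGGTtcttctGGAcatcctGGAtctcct
Col11a1, chr3:114108281-114108334, strand +: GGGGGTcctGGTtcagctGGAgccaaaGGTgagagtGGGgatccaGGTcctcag
Col12a1, chr9:79612916-79612969, strand -: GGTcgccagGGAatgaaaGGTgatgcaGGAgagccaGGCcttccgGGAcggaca
Col6a3, chr1:90791924-90791977, strand -: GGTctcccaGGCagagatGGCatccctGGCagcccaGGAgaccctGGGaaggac
Each exon holds a glycine codon as 1 codon in 3, 6 in all, and those of Col1a1 and Col11a1 hold a 7th next to one of these. The classes differ in how long this repeat runs without a break in the longest annotated coding sequence. It spans 338 triplets of codons in Col1a1, 339 in Col1a2, 344 in Col3a1 and 338 in Col11a1, but 216 in Col24a1 and 217 in Col27a1. It spans 32 in Col12a1 and Col14a1, 87 in Col6a1 and Col6a2, 45 in Col6a3, 40 in Col4a1, 56 in Col17a1 and 30 in both Col15a1 and Col18a1.

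Of the 44 collagen genes, 34 passed the filter on low counts, and each of these reached the filter level of 0.593 CPM (gene counts scaled to a common library size) in at least 2 libraries of each genotype. The other 10 had between 1 and 35 counts over the 5 libraries. Among the 34 tested genes, 22 fell and 1 rose in the knockouts, and 11 did not pass the edgeR quasi-likelihood test at a Benjamini-Hochberg adjusted p of 0.05. Over all 14779 tested genes, 10.0% fell and 9.64% rose. The median log2 fold change (knockout over wild type) was -0.81 over the tested collagens and 0.01 over all tested genes. The CPM values of all 3 knockouts lay below both wild types for 24 of the 34 and above both for 3, where this held for 25.1% and 25.9% of all tested genes. Collagen reads made up 1.81% of the gene counts of WT 1 and 1.60% of those of WT 2, against 0.852%, 1.05% and 1.13% for the knockouts. By class, 9 of 10 tested fibrillar genes fell, 5 of 5 FACIT genes, 4 of 7 network genes, 2 of 4 type VI genes and 1 of 4 transmembrane genes. Of the 4 remaining genes, Col15a1 fell and Col18a1 rose.

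**Figure D1:**
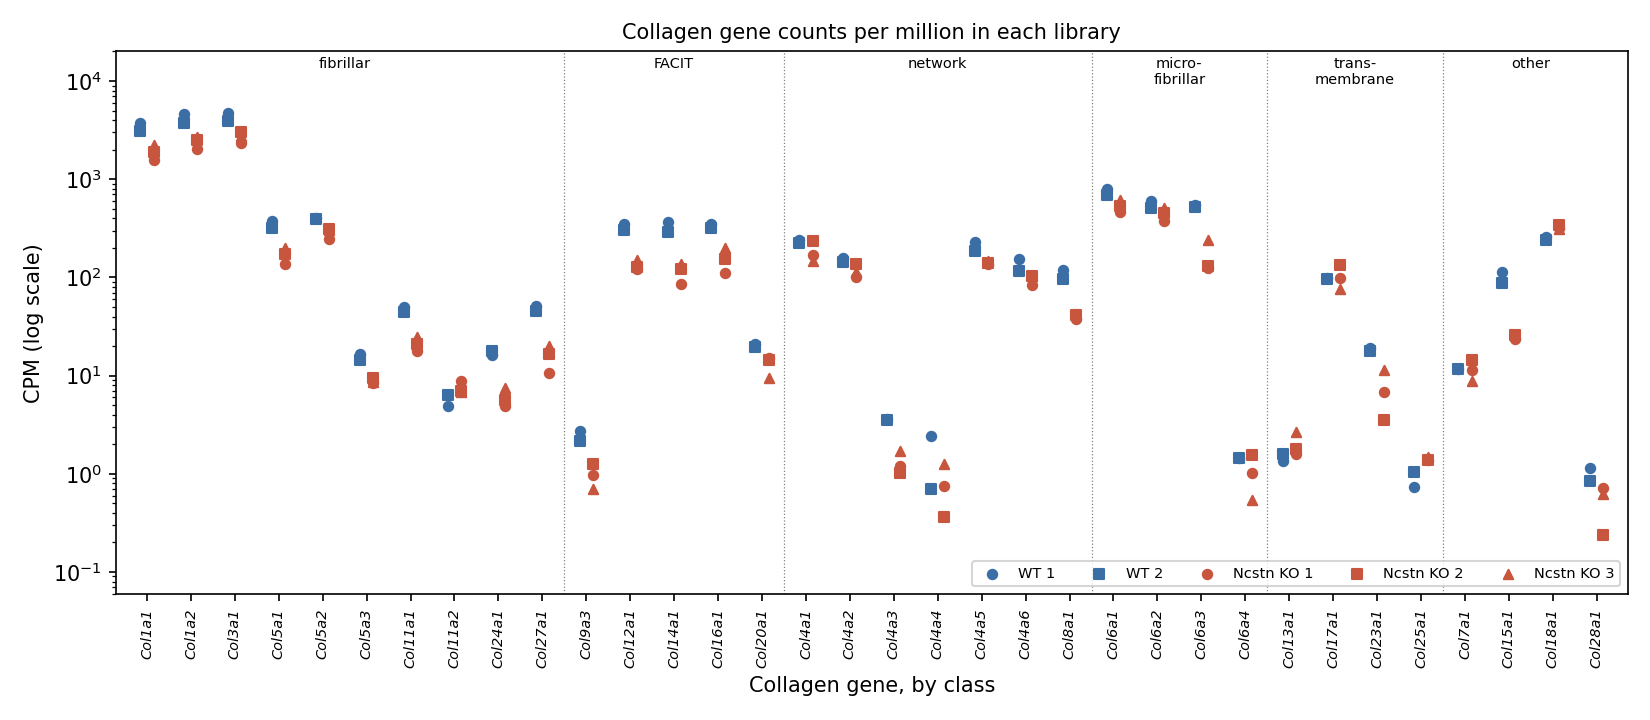
CPM of the 34 tested collagen genes on a log axis, grouped by class. Each point is 1 library, with wild types in blue and knockouts in red, and wild-type means span from 0.888 CPM for Col25a1 to 4319.9 CPM for Col3a1.

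The targeted gene Ncstn was at 144 and 129.6 CPM in the wild types and 114, 117 and 123 CPM in the knockouts (log2 fold change -0.21 ± 0.09 SE, edgeR adjusted p = 0.133). The knockouts lay below both wild types but the gene did not pass, so the knockouts are called that by their labels. Counts over the whole gene include exons outside any deleted part and cells without Krt5, and the floxed exons were not given in the sources used here. Gene counts ranged from 12608836 to 27188499 per library. The precursor ribosomal RNA Rn45s took 3.23% to 7.84% of gene counts in the wild types and 0.608% to 1.53% in the knockouts. The nuclear RNA Malat1 took 0.281% to 0.390% and 0.0658% to 0.0779%. Genes held 49.3% to 54.9% of tallied reads in the wild types and 56.2% to 60.6% in the knockouts. None of these shares overlapped, so RNA preparation and genotype cannot be told apart. With ribosomal and nuclear RNA entries left out, 22 collagens again fell and 1 rose, against 10.4% and 9.17% of all tested genes. That fit does not remove a preparation difference from the other genes. The marker counts that follow are from the fit with all entries, where 10.0% of all tested genes fell and 9.64% rose. Of 12 urothelial markers, 5 rose and none fell, and their summed level ranged from 12257 to 13689 CPM in the wild types and from 17478 to 19604 CPM in the knockouts, so the labelled tissue was present in each library. Of 12 fibroblast markers that are not matrix genes, 7 fell, and 3 rose (Ly6a, Clec3b and Dpep1). None of these 3 passed without WT 1 (edgeR adjusted p = 0.161, 0.208 and 0.0839), nor did Dpep1 without WT 2 (0.0751), Clec3b without KO 2 (0.0601) or Ly6a in a robust fit (0.0553). Over all 12 fibroblast markers the median log2 fold change was -0.56. In all knockouts, 7 of them lay below both wild types and 3 above, where this held for 25.1% and 25.9% of all tested genes. The summed level of the 12 ranged from 1679 to 1809 CPM in the wild types and from 1444 to 1859 CPM in the knockouts. This sum overlapped although most of the markers fell. Pdgfra, a receptor gene widely used to mark fibroblasts, was at 183 and 158 CPM in the wild types and at 99.5, 119 and 118 CPM in the knockouts (log2 fold change -0.61 ± 0.11 SE, edgeR adjusted p = 0.00498), and did not pass without WT 1 (0.0696). Of 10 endothelial markers, 5 fell and none rose, with sums of 529 to 531 CPM in the wild types and 355 to 398 CPM in the knockouts. Of 10 smooth muscle and pericyte markers 1 fell, and their sums of 943 to 1026 and 898 to 1058 CPM overlapped. The immune list summed to 63.6 to 69.3 and 38.0 to 73.1 CPM, and the Schwann cell list to 83.0 to 90.5 and 103 to 175 CPM. Of the 6 Schwann cell markers Mbp rose, and the other 5 had log2 fold changes below 0 and did not pass, with a median of -0.30 over all 6. In these bulk libraries, fewer cells of a type and less RNA per cell cannot be told apart, and the part of cell composition in the collagen differences was not tested.

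**Figure D2:**
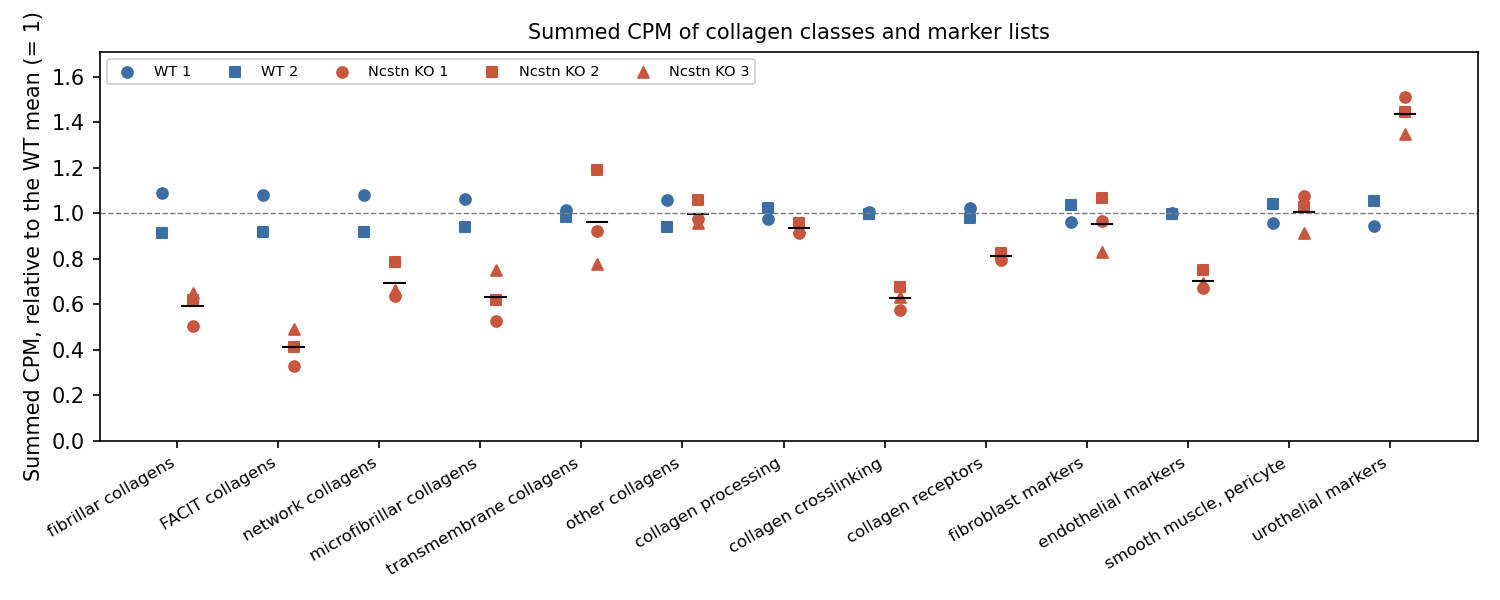
Summed CPM of each collagen class, of the collagen pathway lists and of marker lists, relative to the wild-type mean, with 1 point per library and a bar at the knockout mean. Knockout means lie at 0.591 of the wild-type mean for fibrillar, 0.410 for FACIT, 0.695 for network, 0.633 for type VI (microfibrillar), 0.964 for transmembrane and 0.998 for the other collagens.

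Among fibrillar collagen genes, 9 of the 10 tested members fell. They summed to 13870.1 of 18314 collagen CPM in WT 1 and to 11643 of 15511 in WT 2. The genes of types I and III, the bulk collagens of loose connective tissue, had the highest levels of the family. Col1a1 (chromosome 11, 94936224 to 94953042, GRCm38) was at 3707 and 3091 CPM in the wild types and at 1583, 1891 and 2249 CPM in the knockouts, with libraries given in the order of their numbers here and throughout. Its partner Col1a2, whose chain joins that of Col1a1 in the type I molecule, was at 4569.8 and 3747 CPM in the wild types and 2047, 2486 and 2685 CPM in the knockouts. Col3a1 was at 4680.2 and 3959.6 CPM in the wild types and 2358, 2999 and 2761 CPM in the knockouts. For each of these genes the 2 wild types lay above the 3 knockouts, KO 1 was lowest, and the log2 fold changes were -0.83 ± 0.16 (SE), -0.79 ± 0.16 and -0.67 ± 0.15 (edgeR adjusted p = 0.00713, 0.00734 and 0.0122). Per kilobase of summed exon length, wild-type means were 518 RPKM for Col1a1, 335 for Col1a2 and 440.1 for Col3a1. With the length of the longest coding transcript they were 573, 778 and 776 RPKM, so the order among these genes depends on the gene model, while all other tested collagens were lower with either length.

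Type V and type XI chains are built into the core of collagen fibrils and limit their width. Col5a1 was at 374 and 318 CPM in the wild types and at 138, 174 and 200.2 CPM in the knockouts, and fell 2.03-fold (edgeR adjusted p = 0.00146). Its partner Col5a2 was at 399 and 398 CPM in the wild types and 248, 313 and 307 CPM in the knockouts (log2 fold change -0.46 ± 0.12, edgeR adjusted p = 0.0216), so the CPM ratio of Col5a1 to Col5a2 was 0.938 and 0.800 in the wild types, against 0.558, 0.557 and 0.652 in the knockouts, without overlap. Col5a3 was at 16.6 and 14.6 CPM in the wild types and 8.36, 9.38 and 8.64 CPM in the knockouts (edgeR adjusted p = 0.00415). Col11a1, a chain best known from cartilage fibrils, was at 49.6 and 44.7 CPM in the wild types and 17.9, 20.9 and 24.5 CPM in the knockouts and fell 2.25-fold (edgeR adjusted p = 5.09e-04). Col11a2 was the fibrillar gene that did not pass, at 4.91 and 6.27 CPM in the wild types and 8.85, 6.98 and 6.85 CPM in the knockouts (log2 fold change 0.45, edgeR adjusted p = 0.151), with the 3 knockouts above both wild types. The minor fibrillar genes Col24a1 and Col27a1 had the lowest log2 fold changes of the class. Col24a1 was at 16.1 and 17.9 CPM in the wild types and 4.89, 5.59 and 7.40 CPM in the knockouts (log2 fold change -1.54 ± 0.19, edgeR adjusted p = 6.23e-04). Col27a1 was at 51.8 and 45.8 CPM in the wild types and 10.6, 16.6 and 20.1 CPM in the knockouts (-1.66 ± 0.21, edgeR adjusted p = 7.59e-04). Col2a1, the main collagen of cartilage, had 25 counts in all and was not tested. Without WT 1, 4 fibrillar genes fell, and Col1a1, Col1a2, Col3a1, Col5a2 and Col5a3 did not pass (edgeR adjusted p = 0.0740, 0.0702, 0.0936, 0.121 and 0.0717). Col5a2 did not pass without WT 2 either (0.0794), nor Col3a1 and Col5a2 without KO 1 (0.0520 and 0.0686).

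**Figure D3:**
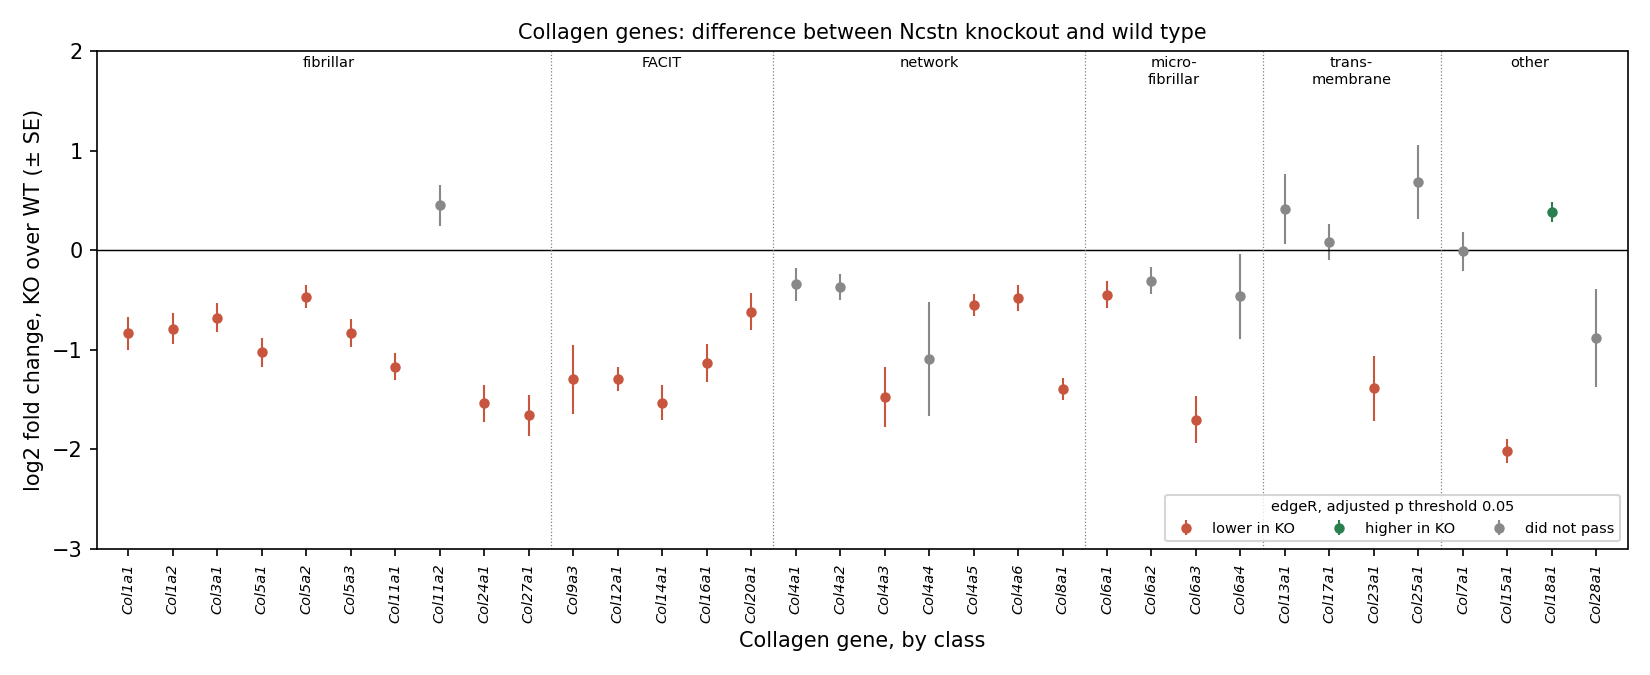
Log2 fold change of knockout over wild type for the 34 tested collagen genes, grouped by class, with the standard error as bars and colour showing the result of the edgeR test. Values run from -2.02 for Col15a1 to 0.69 for Col25a1, and Col18a1 at 0.39 is the member that rose.

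FACIT collagens link fibrils to one another and to other matrix molecules. All 5 tested genes fell, with a median log2 fold change of -1.29. Col12a1 (chromosome 9, 79598991 to 79718831), which encodes a large FACIT chain of dense connective tissue, was at 351 and 302 CPM in the wild types and at 121, 129 and 152 CPM in the knockouts. Its close relative Col14a1 was at 368 and 288 CPM in the wild types and 85.7, 120.5 and 135 CPM in the knockouts. Col16a1 was at 353 and 318 CPM in the wild types and 111, 153 and 198 CPM in the knockouts. All 3 genes were lowest in KO 1, highest among knockouts in KO 3 and below both wild types throughout, and they fell 2.45-fold, 2.89-fold and 2.19-fold (edgeR adjusted p = 1.25e-04, 4.73e-04 and 0.00337). Set against the main fibril gene, Col12a1 reads per Col1a1 read were 0.0948 and 0.0978 in the wild types, against 0.0762, 0.0681 and 0.0676 in the knockouts, and Col14a1 reads per Col1a1 read were 0.0994 and 0.0932 in the wild types, against 0.0541, 0.0637 and 0.0602 in the knockouts. Neither ratio overlapped between genotypes. Both genes had lower log2 fold changes (-1.29 and -1.53) than Col1a1 (-0.83), so lower ratios follow from those values and are no separate result. The log2 fold changes of Col16a1 and Col9a3 were also below that of Col1a1, while that of Col20a1 (-0.62) was above it. An exact permutation test of 2 against 3 libraries cannot go below p = 0.2 (two-sided), so ratios are given as values in each library without a test. Col20a1 was at 20.8 and 19.7 CPM in the wild types and 15.2, 14.4 and 9.42 CPM in the knockouts (edgeR adjusted p = 0.0419). Col9a3, which encodes a cartilage FACIT chain, was at 2.72 and 2.16 CPM in the wild types and 0.979, 1.26 and 0.701 CPM in the knockouts (edgeR adjusted p = 0.0270). Its exons share 234 bases with those of Tcfl5 on the other strand, so its reads are uncertain. Col9a1, Col9a2, Col19a1 and Col22a1 had 11, 17, 35 and 3 counts in all and were not tested. Without WT 1, 2 genes of the class fell, and Col16a1, Col20a1 and Col9a3 did not pass (edgeR adjusted p = 0.0533, 0.230 and 0.257). Without WT 2, 3 fell, with Col20a1 and Col9a3 not past the test (0.117 and 0.0850), and 1 each was lost without KO 1 (Col9a3, 0.0686) and KO 2 (Col20a1, 0.0524).

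Among network collagens 4 of 7 tested genes fell, and the genes of the main basement membrane chains did not pass. Type IV chains are encoded in head-to-head gene pairs. Col4a1 and Col4a2 lie on opposite strands of chromosome 8 (11198423 to 11312826 and 11312805 to 11449287), and their exons overlap by 22 bases. Col4a1 was at 241 and 222 CPM in the wild types and at 169, 234 and 145 CPM in the knockouts, with KO 2 inside the wild-type range. Col4a2 was at 159 and 143 CPM in the wild types and 100.1, 138 and 114 CPM in the knockouts, with all knockouts below the wild types. The log2 fold changes were -0.34 ± 0.17 and -0.36 ± 0.13 (edgeR adjusted p = 0.181 and 0.0775), and without KO 2 both passed (0.0166 and 0.0238). The X-linked pair Col4a5 and Col4a6 encodes chains of epithelial and smooth muscle basement membranes. Col4a5 was at 229.6 and 187 CPM in the wild types and 138, 140.4 and 148 CPM in the knockouts and Col4a6 at 152 and 117 CPM in the wild types and 84.4, 103 and 103 CPM in the knockouts. Both fell, by 0.55 and 0.48 on the log2 scale (edgeR adjusted p = 0.00666 and 0.0318). Reads of Col4a6 per read of Col4a5 were 0.663 and 0.626 in the wild types, against 0.609, 0.734 and 0.698 in the knockouts, and those of Col4a2 per Col4a1 were 0.660 and 0.645 in the wild types, against 0.592, 0.592 and 0.783 in the knockouts. Both ratios overlapped between genotypes.

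The third type IV pair, best known from the kidney glomerulus, was scarcely expressed. Col4a3 was at 3.60 and 3.55 CPM in the wild types and 1.20, 1.02 and 1.71 CPM in the knockouts and passed (edgeR adjusted p = 0.00884), although 563 bases of its exons overlap C430014B12Rik on the other strand. Col4a4 was at 2.45 and 0.697 CPM in the wild types and 0.753, 0.361 and 1.25 CPM in the knockouts, did not pass (edgeR adjusted p = 0.207), and its log2 fold change of -1.09 became 0.13 without WT 1. Col8a1 (chromosome 16, 57624258 to 57754737), a short-chain network collagen of vessels and stroma, had the smallest p of the class. It was at 118 and 95.7 CPM in the wild types and at 38.1, 41.7 and 42.6 CPM in the knockouts, a 2.63-fold fall (edgeR adjusted p = 5.57e-05) with little spread among knockouts. Its relatives Col8a2 and Col10a1 had 19 and 31 counts in all. Without WT 1, Col8a1 was the 1 network gene that fell, and Col4a3, Col4a5 and Col4a6 did not pass (edgeR adjusted p = 0.104, 0.0749 and 0.301, with the log2 fold change of Col4a6 at -0.28). Col4a3 was also lost without WT 2 (0.0648) and Col4a6 without KO 1 (0.0996).

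The chains of type VI collagen are assembled together into microfibrils around cells, and the genes of 2 of the 3 main chains fell. Col6a1 was at 789 and 684 CPM in the wild types and at 463, 539 and 619.8 CPM in the knockouts. Col6a2, its neighbour on chromosome 10, was at 595 and 509 CPM in the wild types and 375, 457 and 509 CPM in the knockouts, with KO 3 reaching the lower wild type. Col6a3 (chromosome 1, 90765923 to 90843971), which encodes the longest of the main type VI chains, was at 551 and 517 CPM in the wild types and at 124, 131 and 239 CPM in the knockouts. It fell 3.25-fold (log2 fold change -1.70 ± 0.23, edgeR adjusted p = 0.00123), against -0.45 ± 0.14 for Col6a1 (edgeR adjusted p = 0.0439) and -0.30 ± 0.14 for Col6a2, which did not pass (edgeR adjusted p = 0.148). Within each library, Col6a3 reads per Col6a1 read were 0.699 and 0.756 in the wild types, against 0.268, 0.242 and 0.385 in the knockouts. Col6a2 reads per Col6a1 read were 0.754 and 0.744 in the wild types, against 0.811, 0.849 and 0.821 in the knockouts. The first ratio was lower and the second higher in each of the 3 knockouts than in both wild types. Col6a4 was at 1.46 and 1.46 CPM in the wild types and 1.02, 1.56 and 0.545 CPM in the knockouts and was not called (edgeR adjusted p = 0.474), and Col6a5 and Col6a6 had 10 and 1 counts in all. The call of Col6a1 was lost when any library but KO 3 was left out (for WT 1, WT 2, KO 1 and KO 2 in turn, edgeR adjusted p = 0.269, 0.0690, 0.141 and 0.111), which left 1 type VI gene, Col6a3, that fell in each of these fits. Without KO 3, Col6a2 passed (0.0312).

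**Figure D4:**
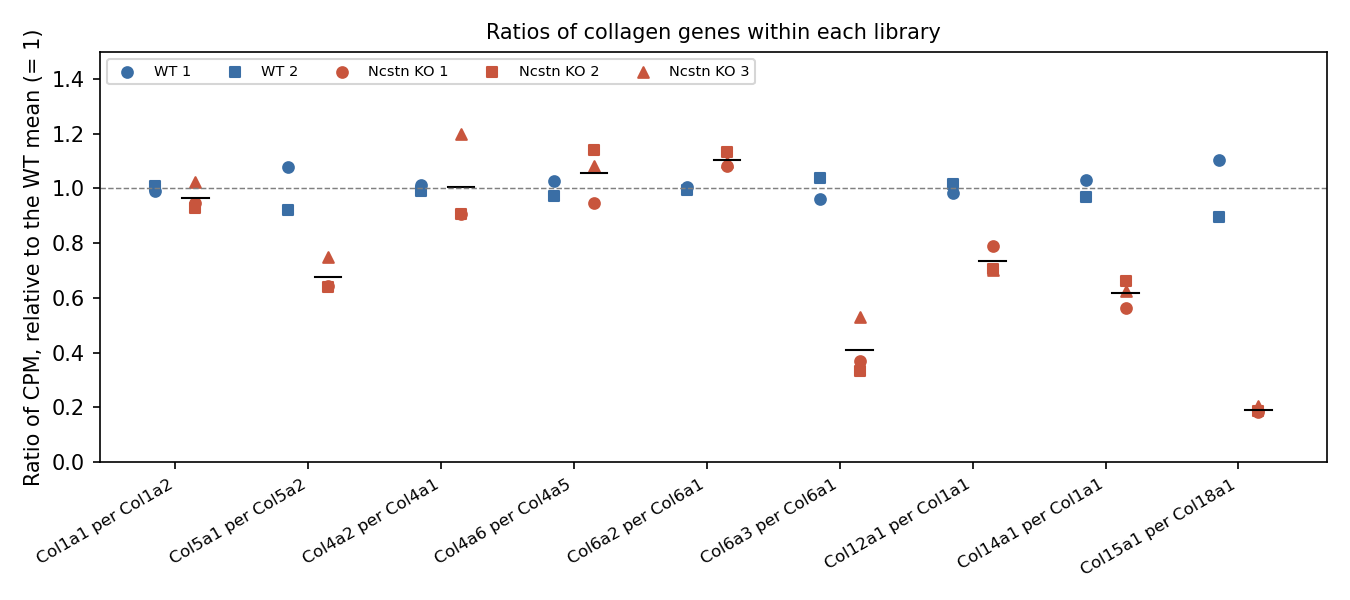
Ratio of CPM between pairs of collagen genes within each library, relative to the wild-type mean, with 1 point per library and a bar at the knockout mean. Knockout means are 0.966 of the wild-type mean for Col1a1 per Col1a2 and 1.01 for Col4a2 per Col4a1, but 0.411 for Col6a3 per Col6a1 and 0.191 for Col15a1 per Col18a1.

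Transmembrane collagens include Col17a1, the hemidesmosome collagen that anchors basal epithelial cells to the basement membrane and so the member closest to the Krt5-expressing cells. Col17a1 was at 99.3 and 96.3 CPM in the wild types and at 99.6, 135 and 76.9 CPM in the knockouts, which lay on both sides of the wild types (log2 fold change 0.09 ± 0.18, edgeR adjusted p = 0.780). Its reads per read of Krt5 were 0.0762 and 0.0574 in the wild types, against 0.0495, 0.0640 and 0.0524 in the knockouts. Col7a1, which encodes the anchoring fibrils under hemidesmosomes, was at 11.6 and 11.6 CPM in the wild types and 11.4, 14.3 and 8.72 CPM in the knockouts (log2 fold change -0.01 ± 0.20, not past the test at an edgeR adjusted p of 0.976). Col23a1 fell, from 19.0 and 18.0 CPM to 6.74, 3.55 and 11.4 CPM (log2 fold change -1.39 ± 0.33, edgeR adjusted p = 0.0162). KO 3 was highest and KO 2 lowest among the knockouts, and the call was lost without WT 1 or WT 2 (edgeR adjusted p = 0.134 and 0.0839), in a robust fit (0.0572) and in DESeq2 (adjusted p = 0.0809). Col13a1, found at cell adhesions, was at 1.36 and 1.60 CPM in the wild types and 1.58, 1.80 and 2.65 CPM in the knockouts, with overlap. Col25a1 was at 0.731 and 1.05 CPM in the wild types and 1.39, 1.38 and 1.48 CPM in the knockouts, all above both wild types. Neither passed (edgeR adjusted p = 0.432 and 0.212).

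Col15a1 and Col18a1 encode the multiplexins, basement membrane collagens with many interruptions whose ends can be cut off as the fragments restin and endostatin. They differed in opposite directions. Col15a1 (chromosome 4, 47208161 to 47313167) was at 114 and 87.1 CPM in the wild types and at 23.5, 25.7 and 25.7 CPM in the knockouts. It fell 4.05-fold (log2 fold change -2.02 ± 0.12, edgeR adjusted p = 1.56e-05), the lowest value among the 34 tested collagens, and the 3 knockouts lay close together. Col18a1 (chromosome 10, 77052178 to 77166548) was at 255 and 239 CPM in the wild types and at 317, 342 and 310.3 CPM in the knockouts. It rose 1.31-fold (log2 fold change 0.39 ± 0.10, edgeR adjusted p = 0.0223), with all 3 knockouts above both wild types. The Col15a1 reads per Col18a1 read were 0.448 and 0.364 in the wild types, against 0.0741, 0.0752 and 0.0828 in the knockouts. The call of Col18a1 also needed each library but KO 3 (with WT 1, WT 2, KO 1 and KO 2 left out in turn, edgeR adjusted p = 0.0862, 0.112, 0.0559 and 0.101), so no collagen rose in those fits, where 2.28%, 4.53%, 5.74% and 5.50% of all tested genes did. Reads of Col18a1 per read of the E-cadherin gene Cdh1 were 0.424 and 0.417 in the wild types, against 0.476, 0.539 and 0.495 in the knockouts, and per read of Krt5 they were 0.196 and 0.142 in the wild types, against 0.157, 0.163 and 0.211 in the knockouts, the latter overlapping between genotypes. Col28a1 was at 1.15 and 0.836 CPM in the wild types and 0.715, 0.241 and 0.623 CPM in the knockouts and was not called (edgeR adjusted p = 0.229), and Col26a1 had 18 counts in all.

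Ratios to the fibroblast marker Pdgfra, which itself fell, differed between collagen genes. Reads of Col3a1 per read of Pdgfra were 25.5 and 25.1 in the wild types, against 23.7, 25.3 and 23.4 in the knockouts, with overlap. For Col1a1 the ratios were 20.2 and 19.6 in the wild types, against 15.9, 15.9 and 19.1 in the knockouts, and for Col6a1 they were 4.30 and 4.33 in the wild types, against 4.65, 4.54 and 5.26 in the knockouts. Col12a1, Col8a1, Col6a3 and Col15a1 had lower log2 fold changes than Pdgfra, so lower ratios follow from those values and are no separate result. The ratios of these 4 genes lay below both wild types in each knockout. For Col12a1 they were 1.92 and 1.92 in the wild types, against 1.21, 1.08 and 1.29 in the knockouts, and for Col8a1 0.644 and 0.606, against 0.382, 0.352 and 0.362. Those of Col6a3 were 3.01 and 3.27 in the wild types, against 1.25, 1.10 and 2.03 in the knockouts. The Col15a1 ratios were 0.623 and 0.552 in the wild types, against 0.236, 0.217 and 0.218 in the knockouts. The knockout mean was therefore 0.954 of the wild-type mean for Col3a1, 0.853 for Col1a1 and 1.12 for Col6a1, but 0.624 for Col12a1, 0.584 for Col8a1, 0.464 for Col6a3 and 0.380 for Col15a1. It was 1.20 for Col4a1, with overlap, and 1.99 for Col18a1, with each knockout above both wild types. Against the endothelial gene Pecam1, Col15a1 ratios were 1.11 and 0.849 in the wild types, against 0.250, 0.244 and 0.309 in the knockouts. The knockout mean of this ratio was 0.273 of the wild-type mean, against 0.854 for Col4a1 (with overlap) and 1.43 for Col18a1, whose ratio was higher in each knockout than in both wild types.

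The genes that process, crosslink and bind collagen were taken from lists set with the classes. Of 31 processing genes 29 were tested, of which 8 fell and 21 did not pass, while no gene rose, at a median log2 fold change of -0.13. Those that fell were 27.6% of the tested list, against 10.0% of all tested genes. The galactosyltransferase gene Colgalt2 was at 4.60 and 4.60 CPM in the wild types and 1.20, 1.08 and 1.56 CPM in the knockouts (edgeR adjusted p = 0.00172). Serpinh1, the procollagen chaperone, was at 364 and 453 CPM in the wild types and 237, 265 and 241 CPM in the knockouts (log2 fold change -0.72 ± 0.12, edgeR adjusted p = 0.00262). P3h2 and P3h3, of the prolyl hydroxylase family, fell by 0.61 each on the log2 scale (edgeR adjusted p = 0.00311 and 0.00483). Of the 3721 exon bases of P3h2, 1055 overlap Gm4524 on the other strand, so its reads are uncertain. Bmp1, which encodes the protease that removes the C-terminal propeptide, fell by 0.58 (edgeR adjusted p = 0.00702). The remaining 3 that fell were Adamts2, the protease of the N-terminal propeptide, and the isomerase genes Fkbp10 and Fkbp14, which were named after their values were seen (edgeR adjusted p = 0.0223, 0.0262 and 0.0454). Without KO 1, 5 processing genes fell, where 6.27% of all tested genes did. The calls of Adamts2, Fkbp10 and Fkbp14 ended when WT 1 was left out (edgeR adjusted p = 0.211, 0.0937 and 0.0717) or KO 1 was (0.0665, 0.0922 and 0.114), and Bmp1 without WT 1 (0.0814). Fkbp10 and Fkbp14 were also lost without WT 2 (0.130 and 0.217) and without KO 2 (0.0669 and 0.102), and Fkbp14 by DESeq2 (adjusted p = 0.0537).

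Lysyl oxidases crosslink collagen outside the cell, and 3 of 5 fell (60.0%, against 10.0% of all tested genes). Lox was at 32.1 and 32.1 CPM in the wild types and at 16.6, 13.8 and 13.5 CPM in the knockouts (2.18-fold lower, edgeR adjusted p = 4.39e-04). Loxl2 and Loxl3 fell by 0.66 and 0.60 on the log2 scale (edgeR adjusted p = 0.00396 and 0.0372), while Loxl1 and Loxl4 were not called (edgeR adjusted p = 0.125 and 0.239). Of 12 receptor genes 11 were tested, and 5 fell (45.5%, against 10.0% of all tested genes) and none rose. Itga1, a collagen-binding integrin subunit, was at 16.5 and 15.9 CPM in the wild types and 7.30, 6.74 and 8.18 CPM in the knockouts (edgeR adjusted p = 9.62e-04). Mrc2, an endocytic collagen receptor, fell 1.90-fold (edgeR adjusted p = 0.00321), Itga11 1.90-fold, Antxr1 1.56-fold and Cd44 1.27-fold (0.0221, 0.0131 and 0.0392). Without WT 1, Itga1 was the 1 receptor gene that fell, and Mrc2, Antxr1, Itga11 and Cd44 did not pass (edgeR adjusted p = 0.0553, 0.155, 0.184 and 0.197). Of the receptor genes, 3 fell without KO 1, where 6.27% of all tested genes did. Without WT 2, Itga11 and Cd44 did not reach the threshold (edgeR adjusted p = 0.0794 and 0.0851), nor without KO 1 (0.0681 and 0.0721). Cd44 was also lost without KO 2 (0.126). For Loxl3, leaving out WT 1, WT 2, KO 1 or KO 2 in turn ended the call (edgeR adjusted p = 0.166, 0.147, 0.0680 and 0.0886). Itga11 was not called by DESeq2 (adjusted p = 0.0978) or in a robust fit (edgeR adjusted p = 0.0730).

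The number of collagen genes that fell rested in part on single libraries. Leaving out WT 1 gave 9 such genes and leaving out WT 2 gave 16, and the fits that lacked KO 1, KO 2 or KO 3 gave 17, 22 and 23. In the same order, 2.51%, 4.87%, 6.27%, 7.46% and 15.2% of all tested genes fell. The 9 genes that fell in each of these fits were Col5a1, Col11a1, Col24a1, Col27a1, Col12a1, Col14a1, Col8a1, Col6a3 and Col15a1. Col18a1 rose without KO 3, where 11.8% of all tested genes did. None of the 23 called collagens changed sign in any fit that was run. Each library is 1 mouse, so the p-values set the difference between groups against the spread between mice of the same genotype. That spread is estimated with help from all tested genes. The p-values do not separate genotype from strain background or induction. Exons of 10 collagen genes overlap an exon on the other strand, among them 14 bases of Col15a1 and 212 of Col5a1. Outside the collagens, such genes include Pdgfra and Loxl3, with 652 and 535 exon bases that overlap exons of other genes. The strand setting of the counting was not given in the sources used here.

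Since 22 members fell, the 250 bases before the start of 38 annotated collagen promoters (35 genes, RefSeq, GRCm38.p6) were searched for 4 motifs on both strands, none of which contains another. Of the genes that fell, Col1a1, Col5a2, Col9a3, Col12a1, Col14a1 and Col4a3 had no promoter among these. The 35 genes also include ones that did not fall or were not tested, so the shares do not describe the genes that fell. The GC box GGGCGG was found in 22 of 38 (57.9%) and in 32.7% of all 32851 promoters in that table. It occurred both in genes that fell, such as Col5a1, and in genes that did not, such as Col7a1 and Col11a2. The CCAAT box was found in 13 (34.2%, against 33.8% of all), the TATA box TATAAA in 5 (13.2%, against 12.4%), and the core TGGGAA, which the Notch partner RBPJ can bind, in 12 (31.6%, against 21.6%). Of the genes with this core, Col20a1, Col4a5 and Col4a6 fell and Col18a1 rose. Col13a1, Col17a1, Col28a1 and Col6a4 did not pass, and Col10a1, Col6a6, Col9a1 and Col9a2 were not tested. The windows of 4 genes that fell are shown 5′ to 3′ on the strand of the gene, with matches in capitals, where CCGCCC is GGGCGG and ATTGG is CCAAT read on the other strand.
Col3a1, chr1:45311288-45311537, strand +: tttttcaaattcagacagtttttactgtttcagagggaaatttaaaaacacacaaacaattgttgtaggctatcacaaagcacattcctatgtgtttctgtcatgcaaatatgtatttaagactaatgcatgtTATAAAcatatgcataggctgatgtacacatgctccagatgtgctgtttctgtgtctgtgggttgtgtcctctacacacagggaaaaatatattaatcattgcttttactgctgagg
Col11a1, chr3:114030290-114030539, strand +: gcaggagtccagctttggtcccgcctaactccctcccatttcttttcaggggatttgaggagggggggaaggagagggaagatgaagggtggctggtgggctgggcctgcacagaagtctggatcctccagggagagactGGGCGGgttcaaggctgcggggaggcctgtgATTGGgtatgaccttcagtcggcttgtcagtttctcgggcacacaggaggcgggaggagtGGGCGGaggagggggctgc
Col8a1, chr16:57754738-57754987, strand -: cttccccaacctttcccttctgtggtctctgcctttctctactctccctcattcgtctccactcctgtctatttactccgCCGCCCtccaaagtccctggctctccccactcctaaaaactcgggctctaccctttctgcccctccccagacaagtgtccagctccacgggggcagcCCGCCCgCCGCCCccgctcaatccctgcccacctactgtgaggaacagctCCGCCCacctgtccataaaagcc
Col15a1, chr4:47207762-47208011, strand +: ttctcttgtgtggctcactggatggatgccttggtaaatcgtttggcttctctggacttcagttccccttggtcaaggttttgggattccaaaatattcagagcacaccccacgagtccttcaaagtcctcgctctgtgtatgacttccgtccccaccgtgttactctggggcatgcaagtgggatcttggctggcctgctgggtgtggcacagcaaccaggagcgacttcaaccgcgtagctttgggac
The Col3a1 window holds a TATA box, those of Col11a1 and Col8a1 hold GC boxes, and that of Col15a1, the gene with the lowest log2 fold change, holds none of the 4 motifs. A match is a run of letters in these windows and not a measured binding site.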

How the data were processed

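Each mouse gave 1 RNA sequencing library from dissected urothelium (2 wild types and 3 Ncstn knockouts), and all 5 count tables were used. Per the labels' protocols, TRI-Reagent was used for RNA extraction and a TruSeq kit for the libraries. The deposited values are whole-number read counts per gene symbol. The submitters' processing notes name HISAT2 2.1.0, HTSeq 0.11.1, DESeq2 and build mm10, with annotation and strand setting not given in the sources used here. In each table, 5 summary entries (such as reads in no gene) were left out, and genes held 49.3% to 60.6% of all tallied reads. No pair of libraries of 1 genotype had counts within sampling noise of each other.

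Genes were kept by edgeR's filterByExpr (minimum count 10, minimum total 15), which left 14779 of 24970. Counts were scaled by TMM, and knockouts were compared with wild types by edgeR 4.0.16's quasi-likelihood test (R 4.3.3) with Benjamini-Hochberg adjustment over all tested genes at 0.05. Standard errors are the log2 fold change divided by the square root of F. CPM values use TMM library sizes, and RPKM divides them by exon length (GENCODE vM21, GRCm38). Libraries were grouped by the labelled genotype. On simulated counts for 14610 genes, the test recovered 52% of genes altered 1.5-fold, 94% of those altered 2-fold and 98% of those altered 4-fold, with 6 false calls among 178. The simulation altered 50 genes at each fold. It gave every gene the same spread between replicates (biological coefficient of variation 0.109). Recovery and false calls in the real libraries can therefore differ from these values.

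Every tested collagen gene is named, with the value in each library. Untested ones are named with their total count. From the processing, crosslinking and receptor lists the 5 genes with the smallest p are named. The marker lists are given by counts and sums, naming those that passed against the majority, Mbp and Pdgfra. The collagen genes, classes and lists were chosen with earlier results of these data known. Alternatives were other scalings and filters, DESeq2 1.42.0, limma-voom (limma 3.58.1), a robust fit, a replicate block, leaving out ribosomal and nuclear RNA entries, and leaving out each library.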

Additional observations from a re-analysis of the deposited data

How the results depend on the processing

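Under other scalings, other filters, limma-voom, and without ribosomal and nuclear RNA entries, each collagen gene that was called in either direction stayed called with its sign, and with no filter on low counts Col4a1 and Col4a2 also passed. DESeq2 and the robust fit each called 0 transmembrane genes lower, where Col23a1 has an unadjusted p under 0.05 in both and edgeR calls 1. Leaving out 1 library at a time gave 9 to 23 collagen genes that fell and 0 to 1 that rose. By class, the number that fell ranged from 4 to 9 for fibrillar, 2 to 5 for FACIT, 1 to 6 for network, 1 to 3 for type VI and 0 to 1 for transmembrane genes, from 4 to 11 for processing and from 1 to 7 for receptor genes. Over all genes, leaving out WT 1, WT 2, KO 1 or KO 2 gave 715, 1429, 1747 or 1901 calls, and leaving out KO 3 gave 3989, against 2907 with all 5. The log2 fold changes of 3 genes that did not pass changed sign when 1 library was left out. They ranged from -0.16 (without KO 2) to 0.24 for Col17a1, from -1.69 to 0.13 (without WT 1) for Col4a4 and from -0.20 to 0.12 (without KO 3) for Col7a1. The cause was not tested.

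The labels do not say that libraries with the same replicate number are paired. Deviations from the group mean of WT 1 and KO 1 correlated at -0.0970 and those of WT 2 and KO 2 at 0.0899 across genes. With 2 wild types, the deviations of WT 2 are those of WT 1 with the sign reversed. These values therefore cannot decide whether the numbers pair mice. With the replicate block, 25 collagen genes fell and 2 rose (Col18a1 and Col11a2), where 16.4% of all genes fell and 2211 of 14779 rose, the log2 fold change of Col7a1 was 0.13, and 4637 genes were called in all. KO 3 is the only library numbered 3, so the block term takes it up. The genotype difference in that fit then rests on the libraries numbered 1 and 2, with few libraries left to estimate the spread. With only the libraries numbered 1 and 2, a fit added after the data were seen, 25 collagen genes fell, as did 16.5% of all genes. This second fit uses the same comparison and is not a separate check. Genes near 1 CPM, such as Col4a4, Col9a3 and Col28a1, are limited by depth.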
